A study of Mus musculus with 6 samples.

Results

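S100 proteins are small calcium sensors of the EF-hand superfamily. Most work as dimers inside the cell, where calcium exposes a surface that grips target proteins such as nonmuscle myosin, annexins or ion channels, and some are secreted and act on receptors of innate immunity. In arteries they are known from smooth muscle that leaves its contractile state, from fibroblasts and from infiltrating leukocytes. The description covers 9 family members (S100a1, S100a4, S100a6, S100a8, S100a9, S100a10, S100a11, S100a13 and S100a16), and every probe set whose single gene symbol in the platform annotation is one of them was taken. This found 12 probe sets of 8 genes among 45037 probe sets. S100a11 has no probe set of its own, because the 1 probe set that lists it also lists other genes, and it is not analysed here. The 9 names were chosen with the knockout against control results of these arrays known, so the differences between groups given for them are a description.

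The arrays measured RNA of mesenteric arteries, the small arteries that feed the gut, from 6 mice of mixed background (FVB, SVJ129, C57BL/6 and others), 1 Affymetrix array per mouse. The 3 control mice (animals 30, 74 and 75) carried Itgb1, the beta1 integrin gene, with loxP-flanked alleles and no Cre. The 3 knockout mice (72, 73 and 86) carried the same alleles with sm22alphaCRE, which is driven by the promoter of the smooth muscle gene Tagln. Every mouse, controls included, was dosed with tamoxifen (1 mg daily, 14 doses starting at an age of 5 weeks) and was 7 weeks old when the vessels were taken and cleared of fat and lymph tissue. The tissue was the whole vessel, so the cell type that carries a transcript is not known, and for any marker fewer cells of a type and less RNA per cell cannot be told apart. Which other cells the driver is active in was not tested here.

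Values below are log2(intensity + 1) after quantile normalization, unless called intensities, and differences are knockout minus control on that scale. Median intensities of the arrays lay between 62.8 and 72.6, and the correlation of array pairs over genes (genes are no replicates) between 0.932 and 0.971 within groups and between 0.883 and 0.942 across them. The targeted gene Itgb1 was lower by 0.73 in the knockout (SE 0.22), with all 3 knockout arrays below all controls, and it did not pass the threshold (limma adjusted p = 0.129), except with array weights (-0.77, limma adjusted p = 0.0329). All 7 smooth muscle markers on the list were above the filter on low signal, which was set at the median of all probe set means, 6.10. The title of animal 86 alone carries an F, and its Xist value was 11.83 against 5.29 to 6.09 on the other 5 arrays, so sex is partly confounded with group.

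All 9 genes lie on chromosome 3 of the RefSeq annotation of GRCm38.p6. From S100a1 to S100a9, 7 of them stand in 1 block in the order S100a1, S100a13, S100a16, S100a4, S100a6, S100a8 and S100a9, interleaved with other S100 genes, and S100a11 and S100a10 adjoin each other in a separate stretch. Promoter windows of 300 bases, from 250 before to 50 after the listed start, were found for 8 of the 9 genes, 9 windows in all. S100a10 was not matched. The windows of 3 genes close together on chromosome 3 are shown first, because their differences between groups ran from 1.64 for S100a4 through 0.47 for S100a6 to 0.09 for S100a8, and a TATAAA stands in those of S100a4 and S100a8 and not in that of S100a6, between them. Capitals mark TATAAA, read on both strands.
S100a4, chr3:90603520-90603819, plus strand: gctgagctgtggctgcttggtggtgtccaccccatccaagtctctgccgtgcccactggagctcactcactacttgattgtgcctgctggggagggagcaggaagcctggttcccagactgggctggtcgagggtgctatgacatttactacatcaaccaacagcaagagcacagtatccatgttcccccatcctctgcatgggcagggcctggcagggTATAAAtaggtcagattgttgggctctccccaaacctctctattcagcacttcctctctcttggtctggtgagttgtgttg
S100a6, chr3:90612644-90612943, plus strand: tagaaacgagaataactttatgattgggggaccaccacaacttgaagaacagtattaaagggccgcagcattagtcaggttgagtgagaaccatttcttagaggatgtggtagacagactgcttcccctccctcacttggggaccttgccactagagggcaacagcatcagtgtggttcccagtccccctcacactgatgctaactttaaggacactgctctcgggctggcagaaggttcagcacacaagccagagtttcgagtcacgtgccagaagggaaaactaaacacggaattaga
S100a8, chr3:90668821-90669120, plus strand: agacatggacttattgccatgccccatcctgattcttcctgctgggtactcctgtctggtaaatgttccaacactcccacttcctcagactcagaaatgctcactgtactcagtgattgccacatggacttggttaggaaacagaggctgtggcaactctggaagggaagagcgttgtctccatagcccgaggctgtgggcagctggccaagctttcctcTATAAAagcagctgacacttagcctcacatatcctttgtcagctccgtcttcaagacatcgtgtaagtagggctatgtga
The TATAAA begins 31 bases before the listed start of S100a4 and 30 bases before that of S100a8, and a further one begins at the listed start of S100a9. It was thus in 3 of 9 windows, against 13.6% of the 32851 windows of all genes. The windows of S100a4, S100a8 and S100a9 thus share this letter string, and its part in the differences between groups was not tested.

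S100a1 and S100a13 are transcribed away from each other from nearly the same place. Their windows share 204 of 300 bases, which are printed in capitals in the S100a13 window because the values of these neighbours differed in spread.
S100a13, chr3:90514185-90514484, plus strand: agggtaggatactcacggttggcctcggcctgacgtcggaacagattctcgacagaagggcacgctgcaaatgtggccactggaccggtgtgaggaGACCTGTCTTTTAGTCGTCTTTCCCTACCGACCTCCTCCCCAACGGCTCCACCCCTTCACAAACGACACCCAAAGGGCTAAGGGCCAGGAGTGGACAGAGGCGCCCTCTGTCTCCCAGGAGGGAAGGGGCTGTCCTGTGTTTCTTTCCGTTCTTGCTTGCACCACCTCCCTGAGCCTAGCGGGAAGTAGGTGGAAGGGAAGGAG
The shared stretch is read on the minus strand for S100a1. Both windows hold more CG dinucleotides, 11 for S100a1 and 14 for S100a13, than the median of all windows, 7. Those in the shared stretch count in both. S100a11 holds 15, S100a6 holds 6, S100a8 holds 4, S100a4 and S100a9 hold 2, and the S100a16 windows hold 2 and 4. Other letter strings gave few matches in the 9 windows. GGGCGG was in 3 (S100a9, S100a11 and the downstream S100a16 window) against 35.7% of all windows. TGANTCA, the AP-1 motif, was in 2 (S100a11 and the same S100a16 window) against 7.81%. TTGCNNAA, a form of the C/EBP motif, was in S100a9 alone against 10.8%. GGAATG, the TEAD motif, and the CArG box of serum response factor were in none, against 14.7% and 1.63%. No match overlapped one of another motif, and a match or its absence says nothing about binding.

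Of the 8 genes measured, S100a4 was set apart by its size of change, S100a6 and S100a10 differed by less, and S100a13, S100a16 and S100a8 differed by under 0.1. S100a1 varied among the control mice, and S100a9 was below the filter. Of the 8 genes, 7 passed the filter and S100a9 did not. Among these 7, S100a4 alone passed an adjusted p under 0.05 in the fit over all 11378 genes, where 2.63% of genes passed in either direction 1.93% upward and 0.694% downward. In 3 of the 7, S100a4, S100a6 and S100a10, every knockout array was above every control array, against 12.9% of all genes tested (28.1% in either direction), and in none was every knockout array below. The contrast chose the genes, so nothing is read from these shares. The median difference of the 7 was 0.09, and that of all genes tested was -0.05.

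**Figure D1:**
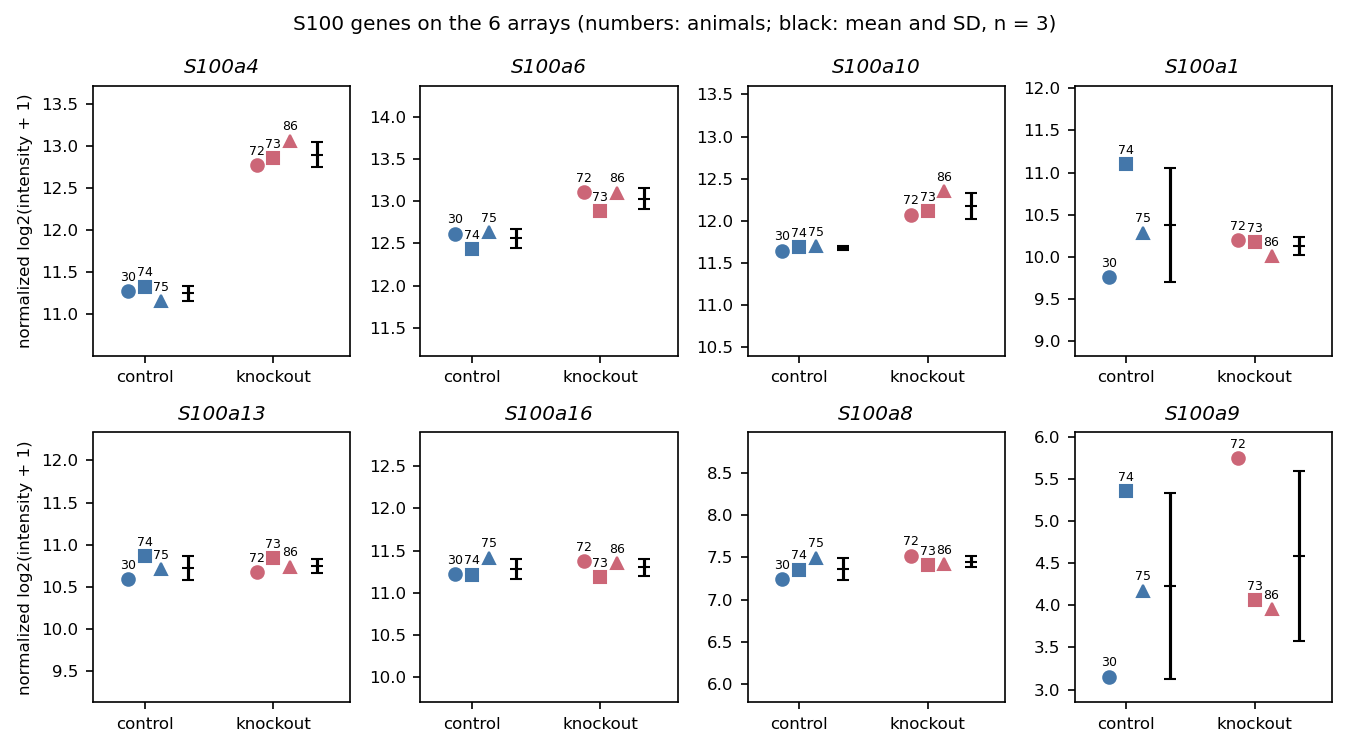
Normalized log2(intensity + 1) of 8 S100 genes (vertical axis, the same span in every panel) on the 3 control and 3 knockout arrays (horizontal axis), each gene by its brightest probe set, with animal numbers at the points and the mean and SD of each group in black. S100a4 is higher on all knockout arrays by more than a unit, S100a6 and S100a10 are higher without overlap, and S100a1 is spread among the controls from 9.76 to 11.10.

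S100a4, also known as fibroblast-specific protein or metastasin, binds nonmuscle myosin IIA and is made by fibroblasts, macrophages and smooth muscle in its synthetic state. Its single probe set had intensities of 2409 in control 30, 2719 in control 74 and 2233 in control 75. In the knockout mice the intensities were 7118 in animal 72, 7177 in animal 73 and 9189 in animal 86. The groups stood far apart, since the lowest knockout intensity was 2.62 times the highest control intensity. On the normalized scale the control mean was 11.25 ± 0.09 (SD, n = 3) and the knockout mean 12.89 ± 0.15 (SD, n = 3). The difference was 1.64 (SE 0.13, 95% confidence interval 1.32 to 1.96), a 3.12-fold level, and its limma adjusted p was 0.00281. It lay between 1.56, without knockout 86, and 1.71, without knockout 72, when 1 array was left out, and passed the threshold in each of these 6 fits. The gap of 1.44 between the highest control and the lowest knockout array was larger than the range within either group, 0.18 and 0.30.

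S100a6, or calcyclin, is found in fibroblasts and many dividing cells and binds the ubiquitin ligase adaptor Cacybp. Its probe set read 12.61, 12.43 and 12.63 in controls 30, 74 and 75. It read 13.10, 12.88 and 13.10 in knockouts 72, 73 and 86. The groups did not overlap, with a gap of 0.25 between the highest control and the lowest knockout array. The control mean was 12.56 ± 0.11 (SD, n = 3), the knockout mean 13.03 ± 0.13 (SD, n = 3), and the difference 0.47 (SE 0.13, 95% confidence interval 0.16 to 0.78), which did not pass the threshold (limma adjusted p = 0.117). It passed with array weights (0.48, limma adjusted p = 0.0389), a setting in which 10.5% of all genes passed.

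S100a10 differs from its relatives in having lost calcium binding, and it forms a membrane complex with annexin A2 that holds plasminogen and carries ion channels to the cell surface. It has 3 probe sets above the filter. The one with the highest signal, whose suffix x marks probes shared with similar sequences, read 11.65, 11.69 and 11.70 in controls 30, 74 and 75. It read 12.07, 12.11 and 12.35 in knockouts 72, 73 and 86, without overlap. The control values were unusually close, since 98.9% of all genes tested had a control range at least as large as its 0.05. The difference was 0.50 (SE 0.13, 95% confidence interval 0.20 to 0.81, limma adjusted p = 0.0964), which passed an adjusted p under 0.10 but not under 0.05.

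The other S100a10 probe sets gave unequal sizes. The second, which has no such suffix, read 10.65, 11.29 and 10.73 in the controls and 11.60, 11.73 and 11.95 in the knockouts, again without overlap. Its difference of 0.87 (SE 0.21) missed the threshold in the fit over 19252 probe sets (limma adjusted p = 0.102), in which 1.65% passed, 1.32% upward, and the groups did not overlap in 26.1%, in 12.7% with the knockout higher. It passed that threshold without control 74, the highest control array, and with array weights. The third was dim, at 6.36 to 7.18 in the controls and 6.55 to 7.14 in the knockouts, and its groups overlapped, with a difference of 0.19 (SE 0.27). The 2 brighter probe sets thus shared a direction, and the dim one did not separate the groups.

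**Figure D2:**
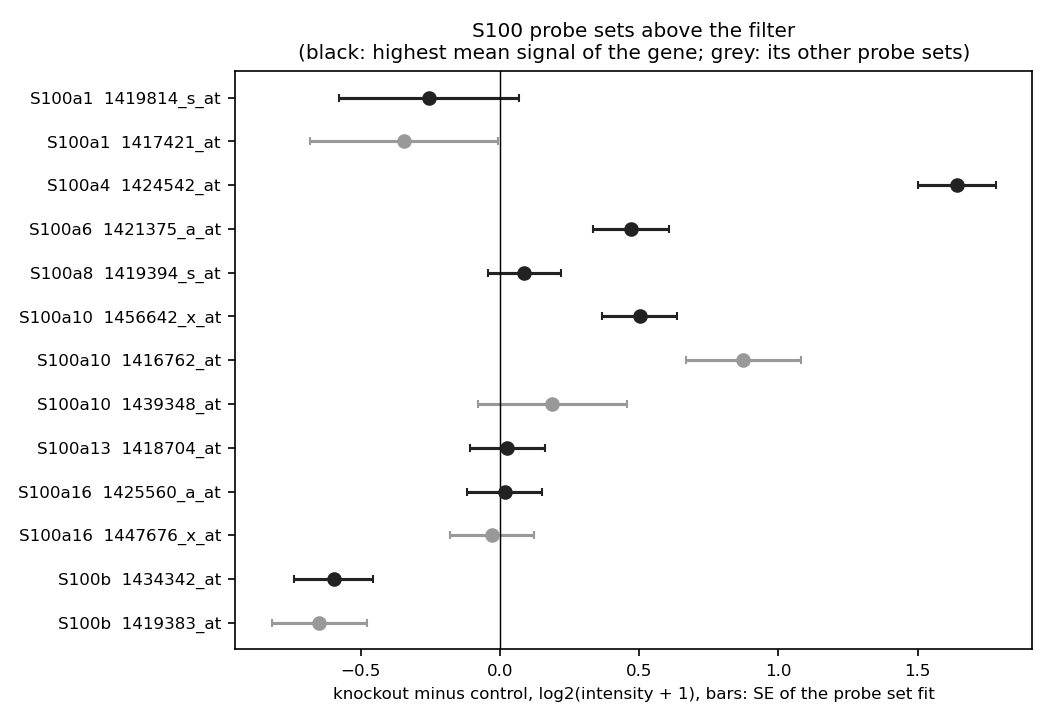
Knockout minus control difference in log2(intensity + 1) (horizontal axis) of the 11 S100 probe sets above the filter and of the 2 of S100b, a family member outside the list, with bars for the SE of the fit by probe set (n = 3 arrays per group). Black points mark the probe set with the highest mean of its gene and grey points the others. S100a4 stands at 1.64, the S100a10 probe sets run from 0.19 to 0.87, and both S100b probe sets lie below 0.

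S100a1 is the S100 protein of striated muscle, where it regulates the ryanodine receptor and the calcium pump of the sarcoplasmic reticulum. Its brighter probe set read 9.76 in control 30, 11.10 in control 74 and 10.29 in control 75. In knockouts 72, 73 and 86 it read 10.20, 10.17 and 10.01. The knockout arrays lay within the range of the controls. The control range of 1.34 was large for these arrays, since 5.13% of all genes tested had one at least as large, while the knockout range was 0.19. The second probe set read 8.68, 10.06 and 9.09 in the controls and 8.95, 9.01 and 8.84 in the knockouts, so both put control 74 highest and control 30 lowest. The difference of the brighter one was -0.25 (SE 0.32, 95% confidence interval -1.01 to 0.50). It was 0.10 without control 74 and -0.57 without control 30, so its sign rests on control 74.

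The adipocyte markers ranked the control arrays as S100a1 did. Their summed intensity (6 genes of the 7 listed, normalized) was 15497 in control 30, 35917 in control 74 and 28559 in control 75. It was 22498, 23032 and 15920 in knockouts 72, 73 and 86. Control 74 was highest and control 30 lowest by both measures, and knockout 86 was the lowest knockout array in both. The same held for the summed neutrophil markers, so this order was not particular to the adipocyte list. The neutrophil sums were 410, 758 and 580 in controls 30, 74 and 75 and 592, 566 and 425 in knockouts 72, 73 and 86. Of the 5 adipocyte genes tested none passed the limma threshold between groups or had an unadjusted p under 0.05, which 21.4% of all genes tested had, the first of them being Pck1 at -0.99 and Fabp4 at -0.20 (limma adjusted p = 0.489 and 0.611). The part of fat cells in the S100a1 values was not tested.

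S100a13, which helps to export fibroblast growth factor 1 and interleukin 1 alpha, shares its start region with S100a1 but not its spread. It read 10.59, 10.87 and 10.71 in controls 30, 74 and 75 and 10.67, 10.84 and 10.74 in knockouts 72, 73 and 86. The groups overlapped. Control 74 was again the highest control array, by far less than for S100a1, with a control range of 0.27. The difference was 0.03 (SE 0.13), with a 95% confidence interval of -0.28 to 0.33, and its sign turned with median centring (-0.06), with array weights and without control 30 or knockout 73.

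S100a16 is a widely expressed S100 protein with 2 probe sets above the filter. The brighter one read 11.22, 11.21 and 11.42 in the controls and 11.37, 11.18 and 11.35 in the knockouts. The second had intensities of 1967, 1731 and 2109 in the controls and 2058, 1712 and 1997 in the knockouts. The groups overlapped in both. The difference of the brighter one was 0.02 (SE 0.13, 95% confidence interval -0.29 to 0.32), which turned to -0.08 with median centring and was also below 0 in 5 other fits, and that of the second was -0.03 (SE 0.15). On both sides of S100a4 and S100a6 in gene order, therefore, stood family members whose interval covers 0.

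S100a8 and S100a9 together form calprotectin, the zinc- and calcium-binding alarmin of neutrophils and monocytes, and both are ligands of Tlr4 and of Ager. The S100a8 probe set, whose suffix s marks probes that match several transcripts, had intensities of 150, 155 and 175 in the controls and 192, 171 and 174 in the knockouts. The groups overlapped, and the difference was 0.09 (SE 0.13, 95% confidence interval -0.21 to 0.38). The S100a8 signal was low enough that a filter at the 70th percentile left the gene out. S100a9 had intensities of 7.79, 37.4 and 16.99 in controls 30, 74 and 75 and of 56.1, 16.1 and 14.1 in knockouts 72, 73 and 86. These lie below the filter level on all 6 arrays, so S100a9 was not tested in the fit as reported, and its values were highest in knockout 72 and control 74.

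Most neutrophil markers were below the filter too. Of 13 listed genes, 11 have a probe set and 2 passed the filter, Mmp9 and Lcn2. Neither passed the threshold, although Mmp9, at -0.64, had an unadjusted p under 0.05 (limma adjusted p = 0.0551), and Lcn2 stood at 0.11 (limma adjusted p = 0.917). Below the filter, the defining receptor Cxcr2 had intensities of 3.29 to 9.70 over the 6 arrays, and the granule gene Camp of 1 to 13.6. Csf3r was brighter, at 56.9 to 110.7. In Mmp9 and in Ltf, which was below the filter, every knockout array was below every control array, as in 15.1% of all genes tested. In the other listed genes with a probe set the groups overlapped. The summed intensity of the 11 genes was 410 to 758 in the controls and 425 to 592 in the knockouts, so the groups overlapped. In a fit of all single-symbol probe sets with no filter, the S100a9 difference was 0.36 (SE 0.70), and its groups overlapped.

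**Figure D3:**
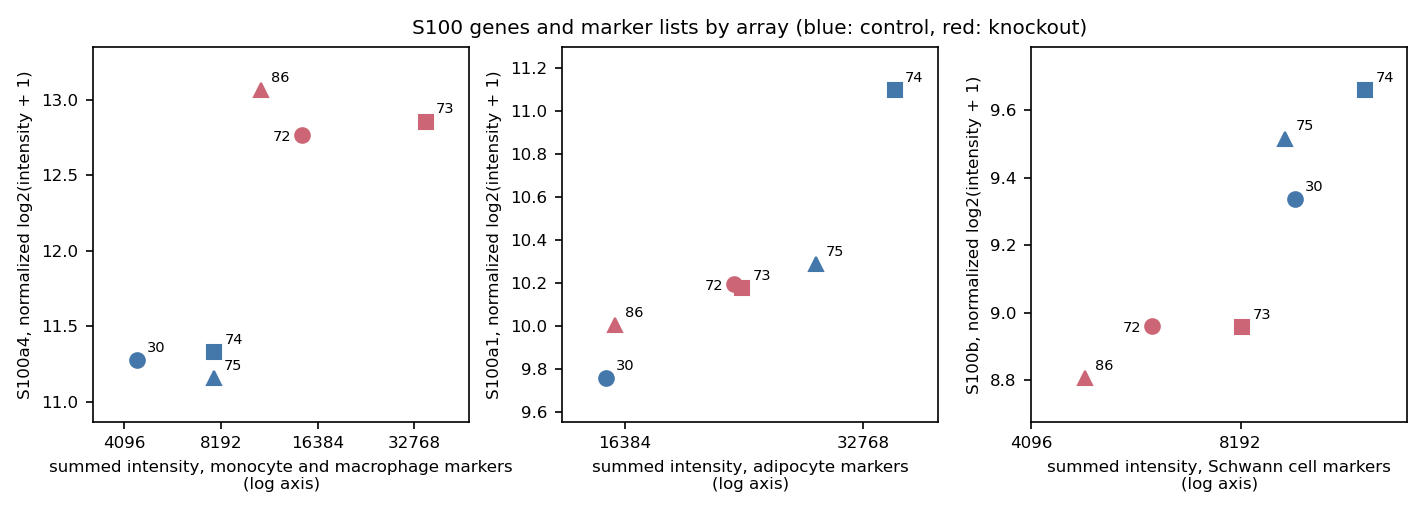
Normalized log2(intensity + 1) of S100a4, S100a1 and S100b (vertical axes) against the summed normalized intensity of a marker list on the same array (horizontal axes, log scale), 1 point per array with its animal number, control in blue and knockout in red. S100a4 and the macrophage sum are both higher on every knockout array than on any control array. The S100a1 values and the adipocyte sum are, among the controls, both highest in control 74 and lowest in control 30.

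Markers of monocytes and macrophages, cells that express S100a4, had higher sums in every knockout mouse than in any control. Of 17 listed genes 15 were tested, and all 15 had a positive difference, with a median of 1.65. Of all 11378 genes tested 4877 had a positive difference, and their median was -0.05. Of the 15, 11 had an unadjusted limma p under 0.05, beside 21.4% of all genes tested. In 9 every knockout array was above every control array, beside 12.9% of all genes, and in none was every knockout array below. Of the list 1 gene passed the threshold, beside 1.93% of all genes upward. This was the monocyte chemokine receptor Ccr2 (2.35, SE 0.28, limma adjusted p = 0.0113), a call lost without control 75 or knockout 72 (limma adjusted p = 0.0529 and 0.0714). The next were Mrc1 at 1.42, C1qa at 1.29 and Fcgr1 at 2.14 (limma adjusted p = 0.065, 0.0754 and 0.0907). The summed intensity of 16 genes was 4468 in control 30, 7798 in control 74 and 7761 in control 75. It was 14672 in knockout 72, 35592 in knockout 73 and 10916 in knockout 86. S100a4 and these sums were both higher in every knockout mouse than in any control. Among the knockout mice the S100a4 values lay within 0.30 of each other, and the highest was in animal 86, which had the lowest sum. The order within so few mice decides nothing about the source of S100a4. Without knockout 73 the S100a4 difference was 1.66. The part of macrophages in the S100a4 values was not tested.

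Fibroblast markers, the other cells known for S100a4, had a median difference of 0.29 over 6 genes. None passed the limma threshold and 2 had an unadjusted p under 0.05, Lum at 0.83 and Pdgfra at 0.75 (limma adjusted p = 0.141 and 0.175), beside 21.4% of all genes tested. Pdgfra stood at 0.46 with the mean of its probe sets and also without control 30, where Lum stood at 0.54. Their summed intensity was 18757 to 26294 in the controls and 25157 to 29309 in the knockouts, and the groups overlapped. The part of fibroblasts in the S100a4 values was not tested either.

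Smooth muscle contractile genes and endothelial genes had mostly negative differences. So did all genes tested, of which 6501 of 11378 were negative, with a median of -0.05. Of 7 smooth muscle genes 6 had a negative difference and none passed the limma threshold, with 2 at an unadjusted p under 0.05, the actin-nucleating protein gene Lmod1 at -1.20 and the myosin heavy chain gene Myh11 at -0.46 (limma adjusted p = 0.0561 and 0.136), beside 21.4% of all genes tested. Lmod1 passed with median centring, with no normalization, with array weights and without control 74 (-1.27, -1.17, -1.21 and -1.46, limma adjusted p = 0.0291, 0.0496, 0.0134 and 0.0204). All 7 endothelial genes had a negative difference and none passed the limma threshold, with 3 at an unadjusted p under 0.05, among them the angiopoietin receptor Tek at -0.62 and the adhesion molecule Pecam1 at -0.86 (limma adjusted p = 0.0915 and 0.124). The summed intensity of the smooth muscle genes was 46681 to 59005 in the controls and 41639 to 48413 in the knockouts, and the groups overlapped. That of the endothelial genes was 16794 to 19729 in the controls and 11775 to 16544 in the knockouts, which did not overlap. Of 8 mesothelial and 6 lymphocyte genes listed, 1 each passed the filter, Gpm6a at -0.92 and Jchain at 1.52 (limma adjusted p = 0.254 and 0.577). The Jchain difference rested on knockout 73, at 12.23 against 8.55 and 6.21 in knockouts 72 and 86, and was -0.10 without it. Gpm6a stood at -0.55 without knockout 86. The part of these cells in the S100 values was not tested.

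By mean absolute difference of centred log2 values over the 6 arrays, the genes most like S100a4 outside the family were the fibrillar collagen Col5a2 (0.06), the chromatin ATPase Atad2 (0.11) and the condensin subunit Ncaph (0.13). They differed between groups by 1.52, 1.47 and 1.55, and Ncaph missed the threshold without knockout 72 (limma adjusted p = 0.0658). The genes most like S100a8 were Eif3i, Chmp1b and Ctr9, at 0.02, 0.03 and 0.03, with group differences of 0.06, 0.08 and 0.05. Closeness by this measure reflects the group difference and the array spread together.

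Of the family outside the 9, 6 genes have probe sets, and S100b alone was above the filter. S100b, a protein of Schwann cells, fat cells and glia, read 9.34, 9.66 and 9.52 in controls 30, 74 and 75 and 8.96, 8.96 and 8.81 in knockouts 72, 73 and 86. Every knockout array was below every control array, which 15.1% of all genes tested showed. The difference was -0.60 (SE 0.14, 95% confidence interval -0.92 to -0.27) and did not pass the threshold (limma adjusted p = 0.0739), and its second probe set stood at -0.65 (SE 0.17). It passed with array weights (-0.55, limma adjusted p = 0.0267). S100a3, S100a5, S100a14, S100g and S100a7l2 had intensities of at most 43.3 on any array.

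Schwann cell markers went with S100b in direction. All 3 genes tested, Cdh19 at -0.79, Sox10 at -0.86 and Mbp at -0.69, had every knockout array below every control array and an unadjusted p under 0.05, and none passed the threshold (limma adjusted p = 0.098, 0.148 and 0.149). All genes tested had a share of 15.1% with every knockout array lower and of 21.4% with such a p. With the mean of its probe sets Mbp stood at -0.31, with an unadjusted limma p of 0.247. Their summed intensity was 9487 to 12369 in the controls and 4895 to 8230 in the knockouts. The part of Schwann cells in the S100b values was not tested.

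The annexins are the best known partners of S100 proteins at membranes, and Anxa1, the partner of S100a11, rose by 1.11 (SE 0.14, 2.15-fold, limma adjusted p = 0.0143). Of 11 genes listed with the plasma membrane repair protein Dysf and the scaffold Ahnak, 10 were tested, 1 passed the threshold upward, none downward, and the median difference was 0.32 against -0.05 for all genes. Of all genes tested 1.93% passed upward and 0.694% downward. In 6 of the 10 every knockout array was above every control array, beside 12.9% of all genes. In 1, Ahnak at -0.14, every knockout array was below every control array, beside 15.1% of all genes. Anxa8 stood at 1.10, Dysf at 0.79 and Anxa4 at 0.56 (limma adjusted p = 0.0622, 0.0773 and 0.09). Anxa4 passed with the mean of its probe sets (1.18, limma adjusted p = 0.0314), and Anxa8 passed with no normalization (1.20, limma adjusted p = 0.0403). Anxa1 kept its call without control 30 or control 74 and lost it without control 75, knockout 72, knockout 73 or knockout 86 (highest limma adjusted p 0.0736).

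Anxa2, the partner of S100a10, was named after its values were seen. Its brightest probe set had intensities of 6782, 6865 and 7445 in controls 30, 74 and 75 and of 9431, 7943 and 10155 in knockouts 72, 73 and 86. The groups did not overlap, the difference was 0.33 (SE 0.13) and it did not pass the threshold (limma adjusted p = 0.216). Its second bright probe set did not overlap between the groups either and stood at 0.63 (SE 0.16, limma adjusted p = 0.112 over probe sets). Plat and Plaur, which encode the tissue plasminogen activator and the urokinase receptor of the plasminogen system that S100a10 serves, stood at 0.57 and 0.73 (limma adjusted p = 0.238 and 0.125). Plat passed without control 74 and with array weights (0.85 and 0.81, limma adjusted p = 0.0444 and 0.0324) and stood at 0.31 with the mean of its probe sets.

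**Figure D4:**
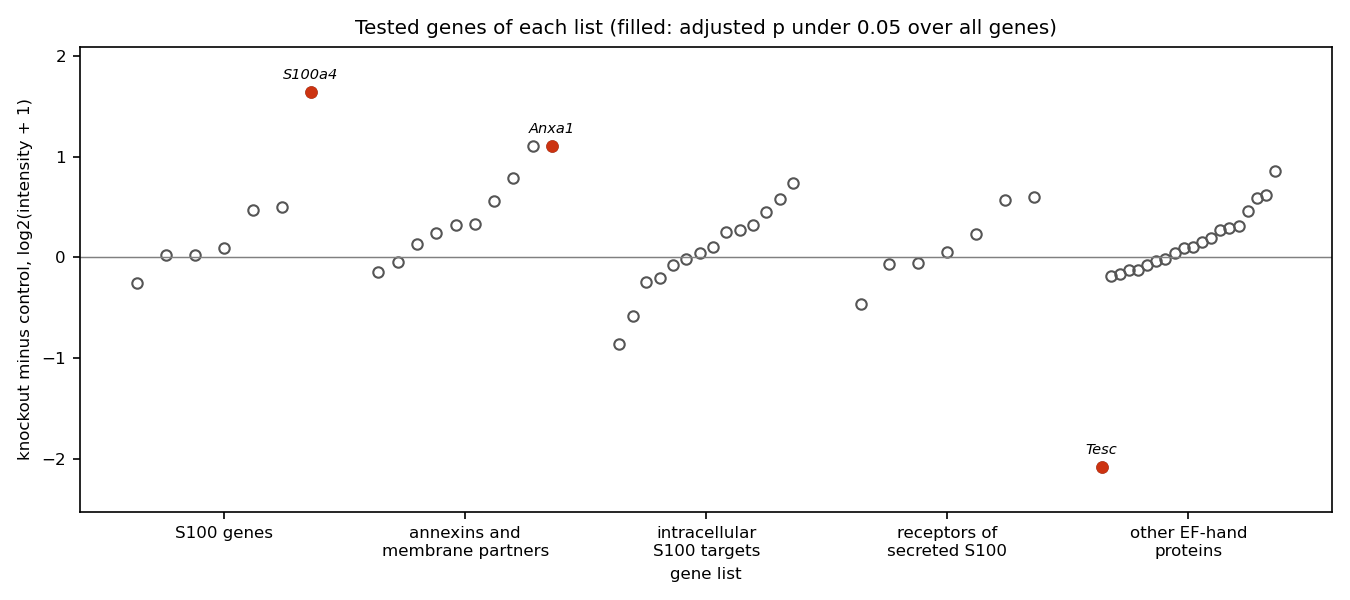
Knockout minus control difference in log2(intensity + 1) (vertical axis) of every tested gene of the S100 list and of the lists of annexins, intracellular S100 targets, receptors of secreted S100 proteins and other EF-hand proteins (horizontal axis), 3 arrays per group, with filled points for genes past the threshold over all genes. S100a4, Anxa1 and Tesc are filled, and the receptors lie between -0.47 and 0.60.

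Of the intracellular targets none of 14 passed the limma threshold, and 3 had an unadjusted p under 0.05, a share near the 21.4% of all genes tested. Myh9, the nonmuscle myosin heavy chain bound by S100a4, stood at 0.45, with all knockout arrays above all controls (limma adjusted p = 0.127). Atp2a2, the reticulum calcium pump that S100a1 regulates in heart, stood at -0.58, with all knockout arrays below all controls (limma adjusted p = 0.119). Ryr2, the ryanodine receptor, named after its values were seen, stood at -0.86 with overlapping groups (limma adjusted p = 0.296). The median of the 14 was 0.07.

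Of the receptors of secreted S100 proteins, 7 were tested, and the groups overlapped in each. None passed the limma threshold or, in the fit over all genes as reported, had an unadjusted p under 0.05. Tlr4 stood at 0.60 and its coreceptor Ly96 at 0.57 (limma adjusted p = 0.253 and 0.246), the adhesion protein Nptn at 0.23 and the scavenger receptor Cd36 at -0.47 (limma adjusted p = 0.472 and 0.647). With the mean of its probe sets Tlr4 stood at 0.99 (unadjusted p = 0.0047 and adjusted p = 0.0887 by limma), and without knockout 86 at 0.33. With no normalization Tlr4 and Ly96 had unadjusted limma p of 0.043 and 0.028. Ly96 stood at 0.36 without control 30, and Nptn at 0.05 with the mean of its probe sets, 0.13 with median centring, 0.35 without control 30 and 0.08 without control 74.

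Among 20 other EF-hand proteins 1 passed the threshold, downward, beside 2.63% of all genes in either direction and 0.694% downward. Tesc, or tescalcin, a regulator of sodium-proton exchange, fell by 2.08 (SE 0.29, limma adjusted p = 0.0184), from 9.27 to 9.54 in the controls to 6.73 to 7.90 in the knockouts. It lost its call without control 30, control 75 or knockout 86 (highest limma adjusted p 0.0812). The reticulum proteins Rcn1 and Rcn3 stood at 0.62 and 0.85 and the neuronal calcium sensor Hpcal1 at 0.59 (limma adjusted p = 0.0664, 0.113 and 0.139). The list median was 0.09, and 6 of 20 had all knockout arrays above all controls, beside 12.9% of all genes tested.

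The genes next to the S100 block differed by less than S100a4. Ilf2, Snapin and Chtop, the 3 protein-coding genes before S100a1, stood at 0.35, -0.22 and -0.12, and none passed the threshold (limma adjusted p = 0.155, 0.495 and 0.625). These were chosen by position, after the arrays had been examined. Along the block the tested differences ran -0.25 for S100a1, 0.03 for S100a13, 0.02 for S100a16, 1.64 for S100a4, 0.47 for S100a6 and 0.09 for S100a8, so neighbouring family members did not share 1 size of difference.

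**Figure D5:**
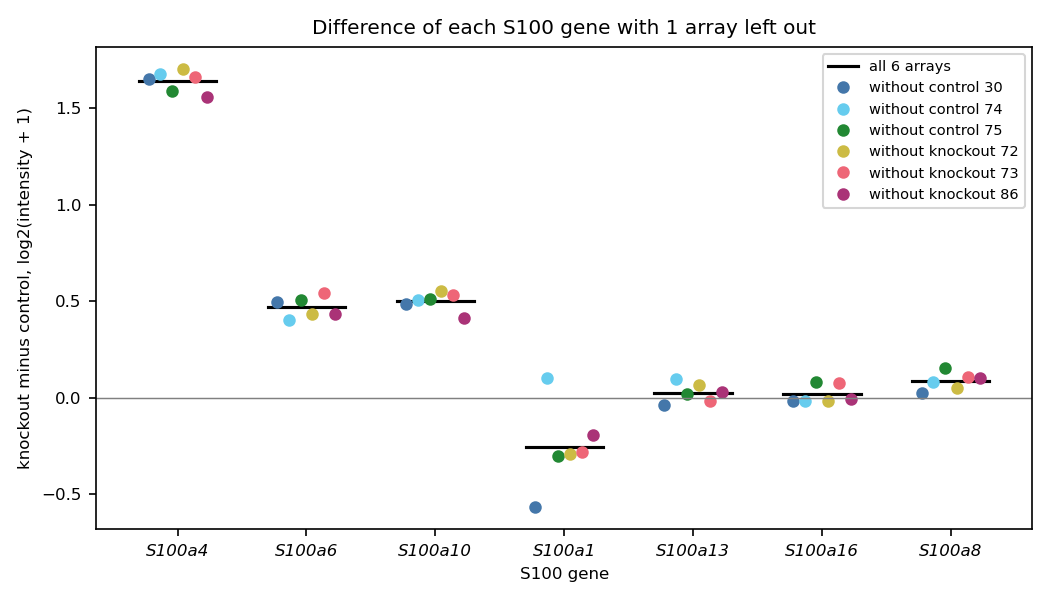
Knockout minus control difference in log2(intensity + 1) (vertical axis) of the 7 S100 genes above the filter (horizontal axis), with a black line for all 6 arrays and a coloured point for each fit without 1 array. The points of S100a4 stay between 1.56 and 1.71, those of S100a6 between 0.41 and 0.54 and those of S100a10 between 0.42 and 0.56, and S100a1 is above 0 without control 74 alone.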

How the data were processed

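RNA of mesenteric arteries from 6 mice, 3 per group, was hybridised to 1 array each, and the number of arrays limits the precision. The authors deposited 1 linear intensity per probe set (45037), and their summarisation and scaling are not given in the sources used here. Separate animals are named but not litters or days. The p-values thus rest on the spread between these mice, with each gene's variance drawn toward a value shared by all genes.

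Of the probe sets, 34945 have 1 symbol in the platform annotation of 2016, 932 have several and 9160 have none. On the deposited intensities, log2(intensity + 1) was taken, where the added 1 understates changes of dim genes, and the values were quantile normalized. Probe sets under the median of all means (6.10) were left out, leaving 19252, and the brightest was kept for each of 11378 genes. limma (version 3.58.1, R 4.3.3; lmFit and eBayes, 2-sided, all 6 arrays) compared the groups, with Benjamini-Hochberg adjustment over all genes and a threshold of 0.05, and was tested on simulated data. Promoter windows come from RefSeq, GRCm38.p6.

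The members and lists were chosen with earlier results of these data known. Named genes were all members, the other S100 genes, of each list the genes past the threshold and, up to 4, those with the smallest p, the 3 nearest in pattern to S100a4 and to S100a8, Itgb1 and Xist. The alternatives tried changed the filter, the choice of probe set, the normalization, the pseudocount (16), the variance prior, the array weights, the threshold (0.10) and the promoter window, or left out each array. A filter at the median of probe sets with 1 symbol (6.50) was added after seeing the data.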

Additional observations from a re-analysis of the deposited data

How the results depend on the processing

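S100a4 passed the threshold under all 16 alternatives run, and the sign of S100a4, S100a6 and S100a10 was the same in each. No paired analysis was possible because the animal numbers differ between groups. The count of S100 genes past the threshold, 1, was 2 with array weights, where S100a6 joined S100a4, and 2 at an adjusted p under 0.10, where S100a10 did; with 1 array left out it stayed at 1. By probe set the count of 1 was 2 with array weights and 1 to 2 with 1 array left out, the second S100a10 probe set joining without control 74. Over all genes the count of 299 was 174 with no filter, 166 at the 70th percentile, 1197 with array weights, 729 at an adjusted p under 0.10 and 47 to 280 with 1 array left out, lowest without knockout 72. The upward share of the calls was 73.6%, and it was 62.9% with median centring and 49.0% with array weights. With 1 array left out it ran from 66.4%, without control 74, to 91.9%, without control 75. Over the lists of partners and markers the count of 3 was 5 with no normalization, 20 with array weights, 15 at an adjusted p under 0.10 and 0 to 5 with 1 array left out. Signs turned for genes that had not passed: Eif3i (-0.049) and Ctr9 (-0.0035) with median centring, Ctr9 without control 30 (-0.0081), Lcn2 without control 30 (-0.29), control 75 (-0.0094) or knockout 72 (-0.12), Cd36 without knockout 86 (0.022) and Jchain without knockout 73 (-0.10). With 1 array left out Jchain ran from -0.10 to 2.91, Lcn2 ran from -0.29 to 0.62 and Cd36 from -0.92 to 0.022. Before the start alone, TATAAA was in 2 of the 9 promoter windows. The cause of these changes was not tested, and fewer arrays enter the fits without 1 array. In the fit as reported, with 3 arrays per group, the differences of S100a6 and S100a10, 0.47 and 0.50, did not pass over all genes. Without knockout 86, the 1 array whose title carries an F, S100a4 was 1.56 higher and passed the threshold. Cell mixture in the vessel cannot be separated from group here.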
